A study of Homo sapiens with 4 samples.

Results

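The genes described here are 44 genes of squamous differentiation in stratified epithelium, chosen by name: 16 precursors of the cornified envelope, 4 transglutaminases, 3 envelope scaffold proteins, 6 calcium-binding proteins, protease inhibitors and related secreted proteins, and 15 S100 genes. All 44 were found among the 27953 genes on the array (identifiers without a gene name counted as genes too), through 53 probes. Of these genes 43 could be tested. The remaining gene, LOR, which encodes the envelope protein loricrin, had a probe that was well above background on 0 of 4 arrays in either channel and has no ratio here.

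Keratinocytes that leave the basal layer build a cornified envelope under the plasma membrane. Transglutaminases cross-link precursors such as involucrin, loricrin and the small proline-rich proteins onto a scaffold of envoplakin and periplakin, and many of these genes lie with most S100 genes in the epidermal differentiation complex on chromosome 1. S100 proteins are small EF-hand calcium-binding proteins, of which the S100A8 and S100A9 pair is known from inflamed and hyperproliferative epithelium and S100A2 and S100A14 from epithelial tumours.

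The cells were SAS, a line from a squamous cell carcinoma of the human tongue. SB cells stably carried a lentiviral shRNA (LYRIC shRNA-B in pLKO.1) against MTDH, the gene for AEG-1 or LYRIC, whereas the control SCt cells carried pLKO.1 vector per the labels or a scrambled shRNA per the methods. Both were selected with puromycin at 2 μg/ml for 14 days and kept in it, and were labelled as stable clones, with no statement of how many clones each line holds. On each of 4 dual-channel Agilent arrays, cDNA made from 15 μg of SB RNA in the red channel was hybridized against SCt cDNA in the green channel, and a log2 ratio below 0 means less signal in SB cells. The comparison asked which transcripts differ when AEG-1 is depleted.

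MTDH itself, the check of the labels, was 9.07-fold lower in SB cells (log2 ratio −3.18 ± 0.17, SD, n = 4), with −3.18, −3.01, −3.12 and −3.41 on arrays 1 to 4 (limma adjusted p = 5.19e-10). Between 84.7% and 90.3% of spots were well above background in a channel, and 0 arrays were dye-swapped, so that a probe's preference for a dye cannot be told apart from the knockdown. The 4 arrays lay on 1 slide in 1 scan. The labels call them biological replicates, but whether they came from separate cultures could not be established, and p-values measure only the spread between arrays. The keratinocyte and epithelial markers KRT5, KRT14, KRT6A, KRT16, KRT17, CDH1, SFN, PERP, DSG3 and JUP were well above background on all 4 arrays (10 of 10), and 0 of them passed an adjusted p of 0.05 in limma (5 had an unadjusted p below 0.05). Of 16 markers of fibroblasts, leukocytes, endothelium and melanocytes 12 were tested as well, so being above background did not by itself separate cell types. Of the 12, 0 passed in limma (1 at an unadjusted p below 0.05), and over all genes tested 3.51% passed. Array 4 stood apart in the epithelial markers, of which 9 of 10 had their lowest level there in SCt cells and 9 of 10 in SB cells, with a mean normalised log2 intensity of 12.73 in SCt cells and 12.77 in SB cells against 13.40 to 13.64 and 13.24 to 13.52 on arrays 1 to 3. For the 12 markers of other cell types, the means were 8.99 to 9.08 over both channels of all arrays. The part of this in the results was not tested, and the called squamous genes are also given without array 4.

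SCEL, S100A14 and S100A3 were lower in SB cells and S100A9 was higher, and the other 39 of the 43 tested genes did not pass an adjusted p of 0.05 in limma. The share called was 9.3% among these genes against 3.51% among all 23484 genes tested (295 or 1.26% higher, 530 or 2.26% lower). By sign, 21 of the 43 genes lay above 0 and 22 below. Their median log2 ratio was 0.00, against 0.01 over all genes, and 31 of the 43 (72.1%) lay within 0.1 of 0, near the 68.4% of all genes that did. The limma 95% confidence interval of the log2 ratio stayed within ±0.5 for 41 of the 43 genes (95.3%, against 98.3% of all genes) and within ±1 for 42. By these intervals, whose standard error draws on the spread of all probes, 2-fold changes in signal lay outside for every tested gene but SCEL. This is weaker for dim probes, such as those of LCE3D and S100A12 (mean log2 intensity 7.01 and 6.86, against 5.99 for undetected LOR). With the software's ratio LCE3D moved from 0.11 to 0.22 and S100A12 from 0.09 to 0.19, while SBSN (6.86) moved from −0.03 to −0.01. How far dim signals narrow a ratio was not tested. Probes of 1 gene also differed in mean log2 intensity, at 13.5, 11.11 and 6.94 for FLG and 14.2 and 7.24 for S100A1. The intervals describe the signal of a probe, and how far each bright probe reads its gene alone was not tested. With each array's ratios centred on the median in place of the loess correction for signal strength, 19 of the 43 were called (14 higher, 5 lower), as were 31.9% of all genes. Without array 4, 5 of the 43 were called (11.6%, against 6.58% of all genes), the 4 genes above and S100A2. RNA from whole cultures cannot tell fewer cells of a state from less RNA per cell.

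**Figure D1:**
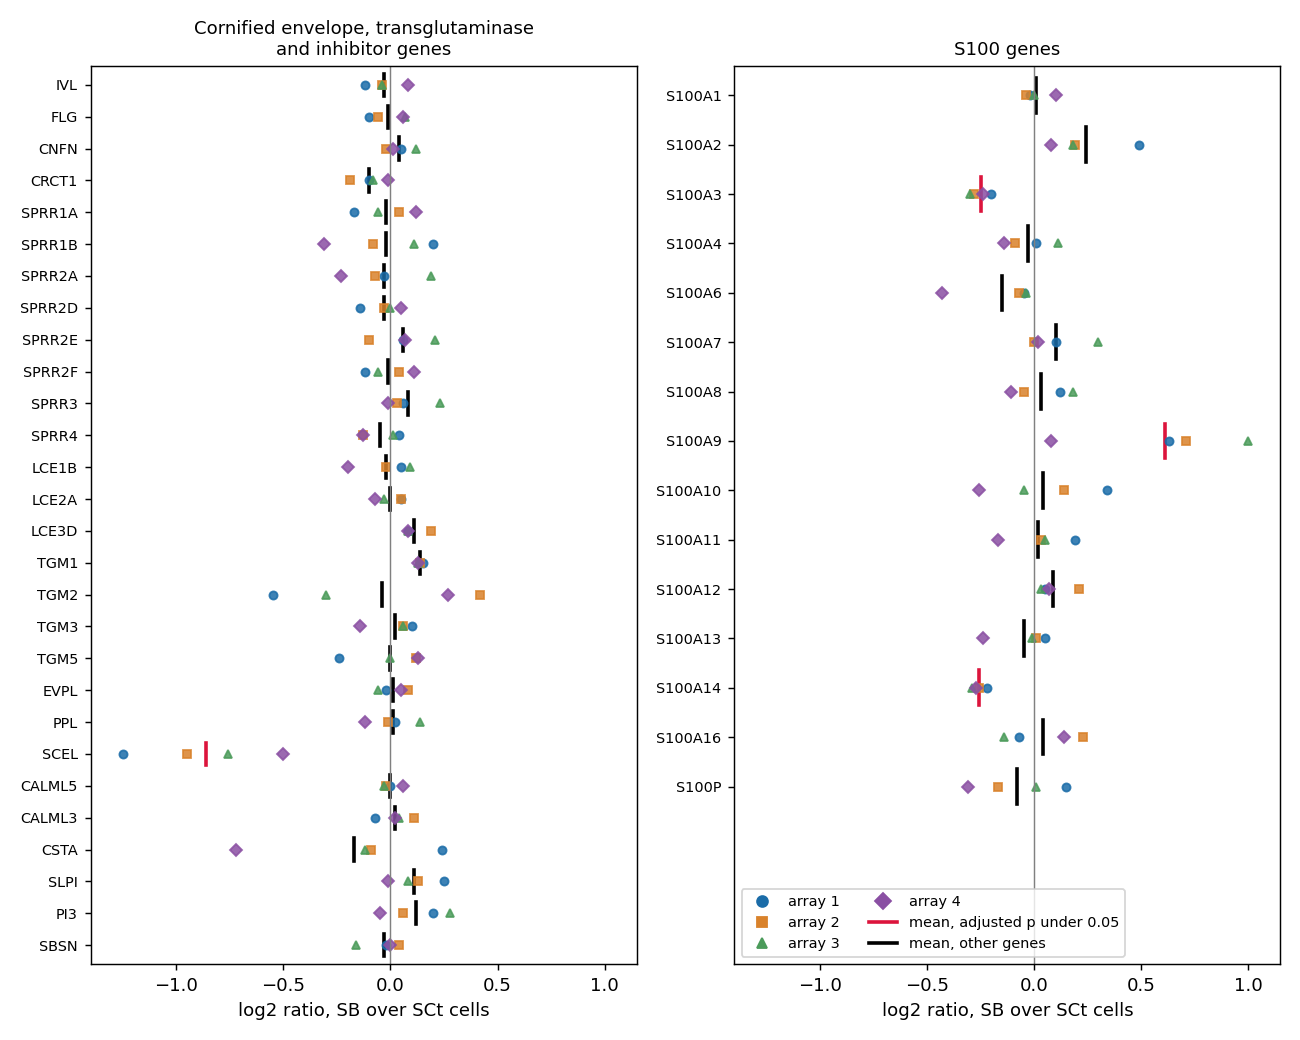
Log2 ratio of SB over SCt for the 43 tested genes, each by its brightest probe, with 1 point per array and a vertical bar at the mean (red where the limma adjusted p was under 0.05). SCEL, S100A3 and S100A14 lie below 0 on all 4 arrays and S100A9 above 0, while most other genes straddle 0 (with median centring S100A14 moved to 0.04).

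The start regions of the 4 genes that passed the test are shown because the letters bound by AP-1, the Jun and Fos factor that drives many squamous genes, occur in only some of them. Each stretch is the 250 bases before the start site, 5′ to 3′ on the gene's strand, from RefSeq (GRCh38.p14), with AP-1 letters (TGANTCA) and TATA letters (TATAAA) in capitals. They are chr13:77535456-77535705 (plus strand) for SCEL, chr1:153549259-153549508 (minus strand) for S100A3, chr1:153616326-153616575 (minus strand) for S100A14 and chr1:153357604-153357853 (plus strand) for S100A9.
SCEL: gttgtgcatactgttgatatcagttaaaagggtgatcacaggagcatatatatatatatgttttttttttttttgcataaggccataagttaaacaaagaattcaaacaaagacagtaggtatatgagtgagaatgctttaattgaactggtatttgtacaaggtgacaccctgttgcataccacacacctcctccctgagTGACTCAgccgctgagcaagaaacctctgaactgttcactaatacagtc
S100A3: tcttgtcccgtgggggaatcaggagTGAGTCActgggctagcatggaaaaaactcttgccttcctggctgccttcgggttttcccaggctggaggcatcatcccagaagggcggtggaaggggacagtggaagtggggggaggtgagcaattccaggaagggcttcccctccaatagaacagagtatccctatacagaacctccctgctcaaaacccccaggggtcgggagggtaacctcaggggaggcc
S100A14: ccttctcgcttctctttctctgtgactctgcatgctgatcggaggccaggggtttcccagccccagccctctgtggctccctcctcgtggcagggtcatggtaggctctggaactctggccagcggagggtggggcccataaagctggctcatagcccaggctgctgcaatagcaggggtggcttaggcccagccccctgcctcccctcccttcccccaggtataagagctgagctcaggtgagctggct
S100A9: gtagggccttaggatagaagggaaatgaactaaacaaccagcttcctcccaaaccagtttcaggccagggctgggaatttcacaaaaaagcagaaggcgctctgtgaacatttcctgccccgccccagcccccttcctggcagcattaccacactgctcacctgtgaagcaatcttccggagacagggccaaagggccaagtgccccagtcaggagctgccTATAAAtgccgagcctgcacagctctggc

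SCEL held TGACTCA, which begins at base −49, and S100A3 held TGAGTCA at base −225, both counted from the start site, whereas S100A14 and S100A9 held no such letters. S100A9 held TATAAA at base −29. The windows compared run from 250 bases before to 50 after the start, and 33 of the 44 genes had at least 1 window in the table (39 windows). Read on both strands, TGANTCA occurred in 13 of the 39 windows (33.3%) against 7.71% of all 35116 windows of that length. The genes were FLG, IVL, LOR, SBSN, SCEL, SPRR1A, SPRR1B, SPRR2A, SPRR2F, SPRR3, S100A2, S100A3 and S100A12. TATAAA occurred in 17 of the 39 (43.6%, against 11.5% of all), GGAAG, the core read by ETS factors, in 32 (82.1%, against 71.9%), and GCCNNNGGC, the letters of AP-2, in 6 (15.4%, against 23.2%). Of the 12 tested genes with AP-1 letters 2 were called (SCEL and S100A3), and of the 20 tested genes whose windows lack them 2 were called as well (S100A14 and S100A9), against 3.51% of all genes. A match of letters is a description of the window, not a bound site.

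Sciellin (SCEL), an envelope protein of keratinocytes that was listed here with the scaffold proteins, had the lowest ratio of the 43 genes. Its log2 ratio was −1.25 on array 1, −0.95 on array 2, −0.76 on array 3 and −0.50 on array 4. All 4 arrays were lower in SB cells, though by unequal amounts, array 1 the most and array 4 the least. The mean was −0.86 ± 0.32 (SD, n = 4), a signal 1.82-fold lower, with a limma 95% confidence interval of −1.08 to −0.65 (limma adjusted p = 0.000606). As this interval draws on the spread of all probes, it is narrower than the 4 arrays of SCEL alone would give. In normalised log2 intensity, a scale made comparable between the arrays, the SCt level was 10.16, 10.61, 9.87 and 8.89 and the SB level 8.91, 9.65, 9.12 and 8.39 on arrays 1 to 4. The levels of the groups overlapped across arrays, since the SCt level of array 4 lay below the SB level of arrays 1 to 3, and the fall shows within each array. Without any 1 of the arrays the ratio was −0.99 to −0.74 and still passed.

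The other scaffold genes did not pass. Envoplakin (EVPL) had a mean log2 ratio of 0.01 (95% interval −0.11 to 0.13), and periplakin (PPL) 0.01 (−0.12 to 0.14). These plakins lie under the membrane where the envelope starts to form. In both, the 4 arrays lay on either side of 0.

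None of the 15 tested envelope precursors passed in limma (0 of 15, and 0 at an unadjusted p below 0.05). Over all 23484 genes 3.51% passed, and 4260 had an unadjusted p below 0.05. With so few precursors, a count of 0 called is close to what a share of 3.51% gives. The mean log2 ratios of the 15 precursors ran from −0.10 to 0.11, with a median of −0.02, 11 below 0 and 4 above. Involucrin (IVL), an early substrate of cross-linking, gave −0.12, −0.04, −0.04 and 0.08 (mean −0.03 ± 0.08, SD, n = 4), with the sign differing between arrays. With median centring IVL moved to 0.21, SPRR1A from −0.02 to 0.23, SPRR2D from −0.03 to 0.19 and FLG from −0.01 to 0.19, while SPRR1B moved from −0.02 to −0.26 (limma adjusted p = 0.0285) and LCE2A from 0.00 to −0.31 (limma adjusted p = 0.0076). Filaggrin (FLG), which bundles keratin filaments, had 3 probes at −0.01, 0.04 and 0.07, and SPRR2D had 2 probes at −0.03 and 0.03, so for both genes the sign depended on the probe. The lowest ratio of the precursors was that of CRCT1 (−0.10 ± 0.08) and the highest that of LCE3D, a late cornified envelope gene (0.11 ± 0.05, SD, n = 4), and neither passed. The remaining small proline-rich genes, SPRR1B, SPRR2A, SPRR2E, SPRR2F, SPRR3 and SPRR4, lay between −0.05 and 0.08, and CNFN, LCE1B and LCE2A between −0.02 and 0.04, all with the loess correction. SPRR and LCE genes are close copies of each other, and how far their probes cross-hybridize was not tested.

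Among the transglutaminases, 0 of 4 passed in limma, against 3.51% of all genes (1 at an unadjusted p below 0.05). TGM1, the membrane-bound enzyme of keratinocytes, had 0.15, 0.14, 0.13 and 0.13 on the 4 arrays. The arrays of TGM1 differed little, and the mean of 0.14 ± 0.01 (SD, n = 4) had an unadjusted limma p of 0.0247 and an adjusted p of 0.189. TGM2, the widely expressed tissue transglutaminase, gave −0.55, 0.42, −0.30 and 0.27 at its brightest probe (mean −0.04 ± 0.46) and −0.50, 0.01, −0.28 and −0.15 at the other (mean −0.23 ± 0.22, limma adjusted p = 0.133). Arrays 1 and 3 were lower than arrays 2 and 4 at both TGM2 probes. TGM3 and TGM5, enzymes of the upper layers, had means of 0.02 and 0.00.

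The calcium-binding, inhibitor and secreted genes gave 0 of 6 in limma, against 3.51% of all genes (0 at an unadjusted p below 0.05). Their means ran from −0.17 to 0.12. Cystatin A (CSTA), a cysteine protease inhibitor of the envelope, had 0.24, −0.09, −0.12 and −0.72. Array 1 of CSTA lay above 0 and array 4 far below, and the mean was −0.17 ± 0.40 (SD, n = 4). Elafin (PI3) and SLPI, inhibitors of elastase that epithelia secrete, had means of 0.12 ± 0.15 and 0.11 ± 0.11, each above 0 on arrays 1 to 3 and just below on array 4. The calmodulin-like CALML3 and CALML5 and suprabasin (SBSN) lay between −0.03 and 0.02. With median centring SBSN moved to −0.29, SLPI to 0.26, PI3 to 0.21 and CALML3 to 0.19 (limma adjusted p = 0.00957, 0.0185, 0.0388 and 0.0355). CSTA at −0.09 and CALML5 at −0.15 were not called there.

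Of the 15 S100 genes, S100A9 was higher and S100A14 and S100A3 were lower in SB cells (3 of 15 called, or 20.0%, against 3.51% of all genes). S100A9, the partner of S100A8 in calprotectin, had log2 ratios of 0.63, 0.71, 1.00 and 0.08. Arrays 1 to 3 were clearly higher in SB cells and array 4 was close to 0. The mean was 0.61 ± 0.39 (SD, n = 4), a signal 1.52-fold higher, with a limma 95% interval of 0.36 to 0.85 (limma adjusted p = 0.0124). That interval draws on the spread of all probes and is narrower than the 4 arrays of S100A9 alone would give. Without array 3 the mean was 0.47 and the limma adjusted p 0.154. Over the 15 alternative settings the adjusted p of S100A9 ran from 5.81e-10 to 0.364 and the ratio from 0.47 to 0.82.

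S100A8, whose protein pairs with S100A9, gave 0.12, −0.05, 0.18 and −0.11 (mean 0.03 ± 0.14, SD, n = 4; limma adjusted p = 0.834). S100A8 lay on both sides of 0, while S100A9 was above 0 on every array. The log2 ratio of S100A9 exceeded that of S100A8 by 0.51, 0.77, 0.82 and 0.19 (mean 0.57 ± 0.29). An exact two-sided sign-flip test gave p = 0.125. It decides nothing, because 4 arrays allow no smaller p and S100A8 was chosen after its values were seen. S100A12, a neighbour of both that is also secreted in inflammation, had a mean of 0.09 ± 0.08 at its tested probe.

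S100A14, which is expressed in epithelia, had −0.22, −0.26, −0.29 and −0.27 (mean −0.26 ± 0.03, SD, n = 4), a signal 1.20-fold lower (limma adjusted p = 0.0223), whereas with median centring it stood at 0.04. S100A3, a calcium- and zinc-binding protein best known from hair cuticle, had −0.20, −0.28, −0.30 and −0.24 (mean −0.25 ± 0.05), 1.19-fold lower (limma adjusted p = 0.0249). For both genes the 4 arrays lay close together on the same side of 0. Both changes were small, and their calls depended on which array was left out and on the test. Without array 4 both passed (limma adjusted p = 0.0184 and 0.0167), and with all 4 arrays both failed under the trend and robust options of eBayes (0.0528 and 0.0573). Without array 1, 2 or 3 the limma adjusted p rose to 0.0577, 0.118 and 0.119 for S100A14 and to 0.0574, 0.138 and 0.137 for S100A3. Across all 15 settings the adjusted p ran from 0.0184 to 0.658 for S100A14 and from 0.0167 to 0.191 for S100A3.

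The remaining 12 S100 genes did not pass. S100A2, known from basal epithelium and as a p53 and p63 target, had 0.49, 0.19, 0.18 and 0.08 (mean 0.24 ± 0.18, SD, n = 4; limma adjusted p = 0.0927). All 4 arrays of S100A2 lay above 0, and without array 4 the mean of 0.29 passed (limma adjusted p = 0.0105). Its mean was 0.65 with median centring (limma adjusted p = 0.000587) and 0.12 with the scanner software's ratio (limma adjusted p = 0.445). S100A6, or calcyclin, gave −0.05, −0.07, −0.04 and −0.43, so that array 4 set most of its mean of −0.15 ± 0.19. Psoriasin (S100A7) had a mean of 0.10 ± 0.14, and S100P, first found in placenta, −0.08 ± 0.21. S100A1, S100A4, S100A10, S100A11, S100A13 and S100A16 had means between −0.05 and 0.04 with the loess correction. With median centring S100A1 moved to 0.26, S100A10 to 0.34, S100A11 to 0.37 and S100A16 to 0.23 (limma adjusted p = 0.0122, 0.0238, 0.00856 and 0.0246). S100A7 moved to 0.26 (limma adjusted p = 0.0194), while S100A4 at 0.15 and S100A13 at 0.17 were not called. S100A10, the annexin A2 partner, ran from 0.34 on array 1 to −0.26 on array 4.

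**Figure D2:**
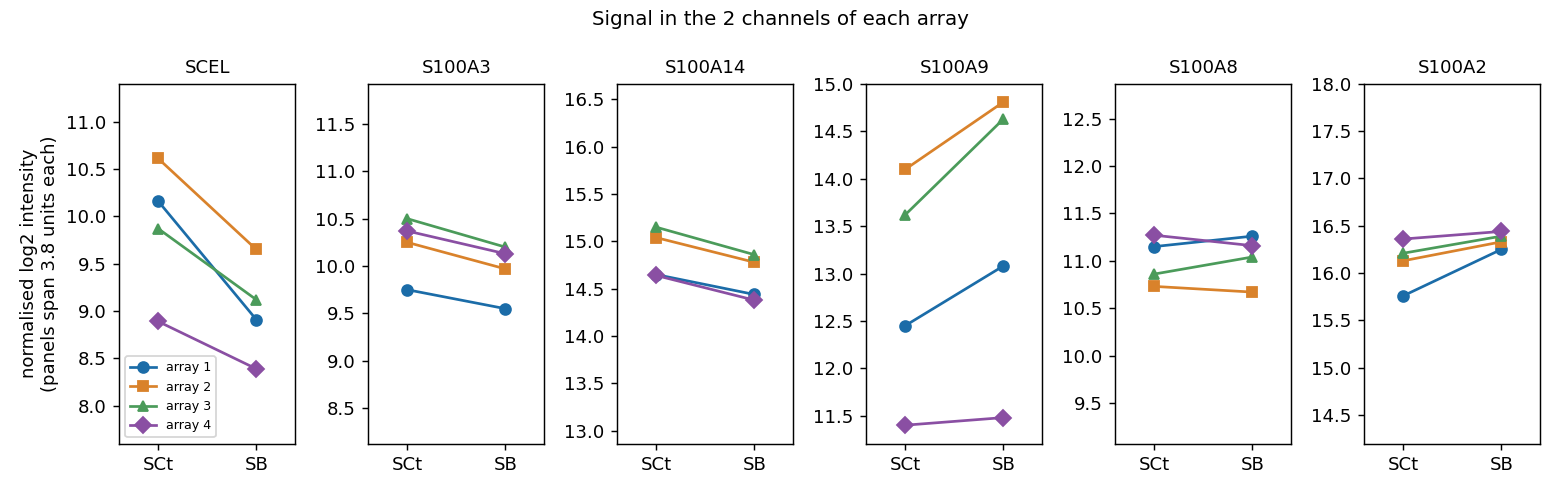
Normalised log2 intensity of the SCt and SB channels for 6 genes, with 1 line per array; each panel spans the same number of log2 units but has its own offset, so panels are not comparable in height. The S100A9 lines start between 11.40 and 14.10 in SCt cells, while those of S100A8 start between 10.73 and 11.27.

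The arrays also differed in the level of some of these genes in both lines at once. S100A9 had SCt levels of 12.45, 14.10, 13.62 and 11.40 and SB levels of 13.08, 14.81, 14.63 and 11.48 on arrays 1 to 4, in normalised log2 intensity. Arrays 2 and 3 were high and array 4 was low in both channels. In SCt cells the highest array was 6.49-fold above the lowest, and in SB cells 10.1-fold, so the difference between the lines (1.52-fold) was smaller than that between the arrays. Of the 23136 genes with values on all arrays, 8 had a wider range in SCt cells, and the median range was 0.39 on the log2 scale. S100P had SCt levels of 8.75, 9.39, 8.81 and 7.55, and SLPI had 12.18, 12.74, 12.64 and 11.25. Their lowest array was again array 4 and their highest array 2, in SB cells too. Counting SCEL, 4 of the 43 genes ranged over more than 1 log2 unit in SCt cells (S100A9, S100P, SCEL and SLPI), and the median range of the 43 was 0.44. Array 4, where S100A9 and SCEL had their lowest levels, also gave the smallest ratios of both genes. Array 4 was also the array with the lowest epithelial markers in both channels. The mean level of the 43 genes was also lowest on array 4 in both channels, though by less. It was 10.71 in SCt cells and 10.64 in SB cells, against 10.76 to 10.85 on arrays 1 to 3 in either. The genes were divided: in SCt cells 10 had their lowest and 14 their highest level on array 4, and in SB cells 16 and 12. Without array 4 the mean ratio of S100A9 was 0.78 (limma adjusted p = 5.81e-10) and that of SCEL −0.99 (limma adjusted p = 2.72e-12). Both p-values draw on the spread of all probes, of which 1977 were called without array 4 against 1055 with it. They do not measure arrays 1 to 3 of these genes alone. Leaving out array 1, 2 or 3 instead gave a limma adjusted p of 0.0431, 0.0495 and 0.154 for S100A9. For SCEL it was 0.00141, 0.00281 and 0.0339. The part of the array differences in level in the ratios was not tested.

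Gene order was examined because 29 of the 44 genes lie between S100A10 and S100A1 on chromosome 1. RefSeq lists 63 protein-coding genes in that interval, of which 59 were on the array and 51 were tested. The 3 called genes, S100A9, S100A3 and S100A14, all belonged to the list (3 of 28 tested there, or 10.7%, against 3.51% of all genes). Of the other 23 tested genes, among them many late cornified envelope genes, 0 passed in limma, and their ratios ran from −0.08 to 0.16; with so few genes, a count of 0 is close to what a share of 3.51% gives. S100A9 is next to S100A12 in the order and then S100A8, while S100A3 stands between S100A4 (−0.03) and S100A2 (0.24). The nearest tested genes on either side of each called gene were not called, and the median over the 51 genes was 0.01.

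**Figure D3:**
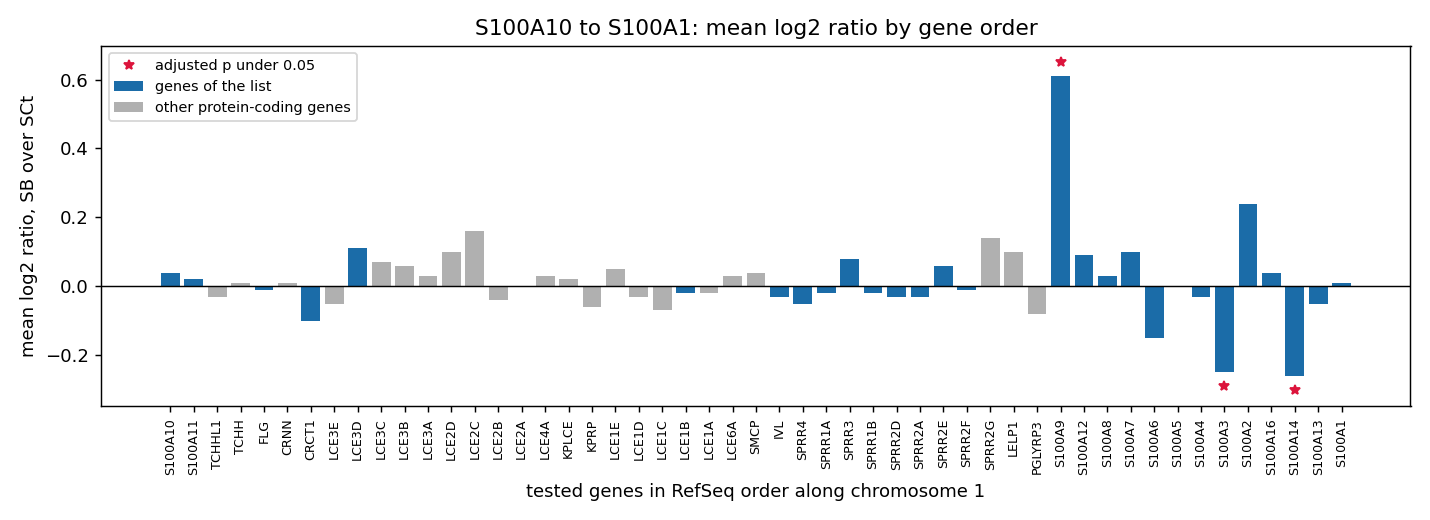
Mean log2 ratio of SB over SCt for the 51 tested genes between S100A10 and S100A1, in RefSeq order along chromosome 1, with blue bars for the genes described here, grey bars for the other genes and stars for a limma adjusted p under 0.05. The bars of the envelope genes in the middle stay between −0.10 and 0.16, and the 3 stars lie among the S100 genes at the right (S100A14 stood at 0.04 with median centring).

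The pathway around these genes was described from further lists. Of 18 transcription factors and cofactors of squamous differentiation, 4 passed the test in limma (22.2%, against 3.51% of all genes), 3 lower and 1 higher in SB cells. Since these lists were chosen with earlier results of these data known, such shares only describe them. EHF, an epithelial ETS factor, had −0.60, −0.80, −0.69 and −0.30 (mean −0.60 ± 0.22, SD, n = 4; limma adjusted p = 0.00148). ELF3, a second epithelial ETS factor, had −0.36, −0.58 and −0.31, with the spot on array 4 left out as an outlier (mean −0.42 ± 0.15, SD, n = 3; limma adjusted p = 0.0124). With the outlier spot kept, array 4 of ELF3 read −0.06 and the mean was −0.33, whereas the series table gave 0.09 on array 4 and a mean of −0.28 (limma adjusted p = 0.182). With median centring the ELF3 mean was −0.16 (limma adjusted p = 0.168), and without array 2 it was −0.33 (limma adjusted p = 0.116). EHF was lower in SB cells on all 4 arrays. The ETS core GGAAG occurred in most windows of the squamous genes and of all genes alike. TFAP2A, the AP-2 factor of epidermis and neural crest, had −0.15, −0.43, −0.55 and −0.51 (mean −0.41 ± 0.18, SD, n = 4; limma adjusted p = 0.00812). HOPX, a homeodomain-only cofactor, had 0.42, 0.31, 0.15 and 0.24 (mean 0.28 ± 0.12, SD, n = 4; limma adjusted p = 0.0274). The other 14, including TP63 (−0.06), KLF4 (0.13), OVOL1 (0.17), GRHL3 (0.18) and ZNF750 (0.08), did not pass. Without array 3, 0 of all 69 related genes tested passed in limma (12 at an unadjusted p below 0.05), with adjusted p of 0.0536 for EHF, 0.085 for ELF3, 0.113 for TFAP2A and 0.0802 for HOPX. Their adjusted p over the 15 settings ran from 3.21e-09 to 0.267 for EHF, 0.000144 to 0.342 for ELF3, 0.000852 to 0.294 for TFAP2A and 0.00614 to 0.284 for HOPX.

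**Figure D4:**
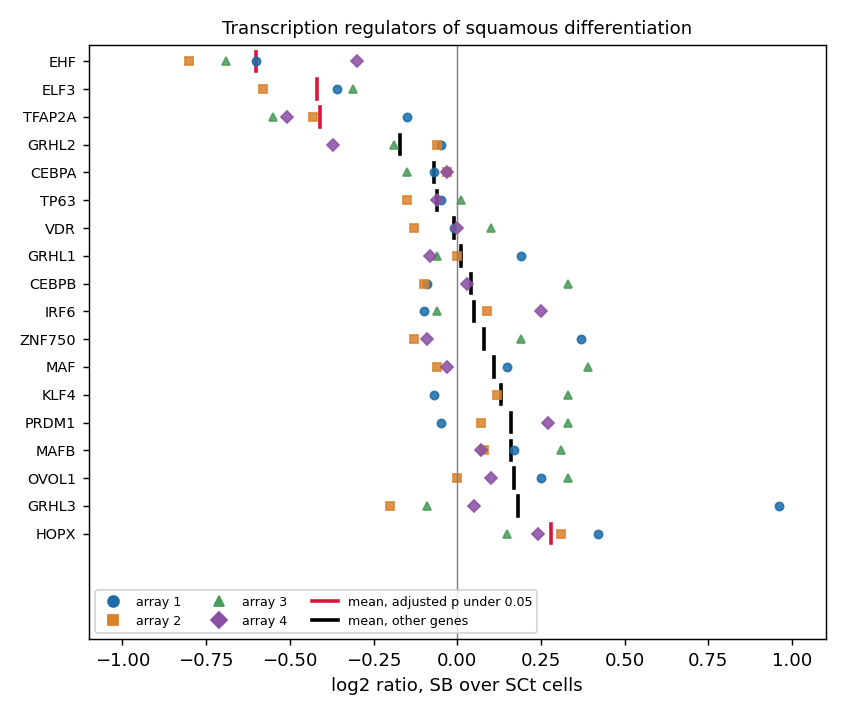
Log2 ratio of SB over SCt for 18 regulators of squamous differentiation, ordered by their mean, with 1 point per array and a vertical bar at the mean (red where the limma adjusted p was under 0.05). EHF, ELF3 and TFAP2A lie below 0 at every point shown and HOPX above 0; ELF3 and KLF4 have 3 points each, the outlier spot of array 4 being left out.

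Of 12 tested barrier enzymes and their inhibitors 1 was called, or 8.33% against 3.51% of all genes. KLK5, the kallikrein that starts the protease cascade of the horny layer, had −0.42, −0.27, −0.55 and −0.25 (mean −0.37 ± 0.14, SD, n = 4; limma adjusted p = 0.00898). All 4 arrays were lower in SB cells, and without array 3 the mean was −0.31 (limma adjusted p = 0.0924). Median centring gave KLK5 a mean of −0.20 (limma adjusted p = 0.0361). Across the 15 settings its adjusted p ran from 0.000159 to 0.272. Of 10 partners of S100 proteins, ANXA11, an annexin that binds S100A6, was lower, at −0.38, −0.17, −0.49 and −0.13 (mean −0.29 ± 0.17, SD, n = 4; limma adjusted p = 0.0394). With median centring its mean was −0.10 (limma adjusted p = 0.247). ANXA11 passed in 6 of the 15 alternatives (adjusted p from 0.0017 to 0.351), and without array 1, 2 or 3 the limma adjusted p was 0.125, 0.0783 and 0.226. A further 26 envelope genes and 3 other S100 genes gave 0 calls in limma, against 3.51% of all genes. Of these 26 and 3 genes, 3 and 0 had an unadjusted p below 0.05. In all, 6 of the 69 related genes were called, or 8.7% against 3.51% of all genes, 1 higher (1.26% of all genes) and 5 lower (2.26%), and their median was 0.00. Median centring called 28 of the 69, 17 higher and 11 lower.

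**Figure D5:**
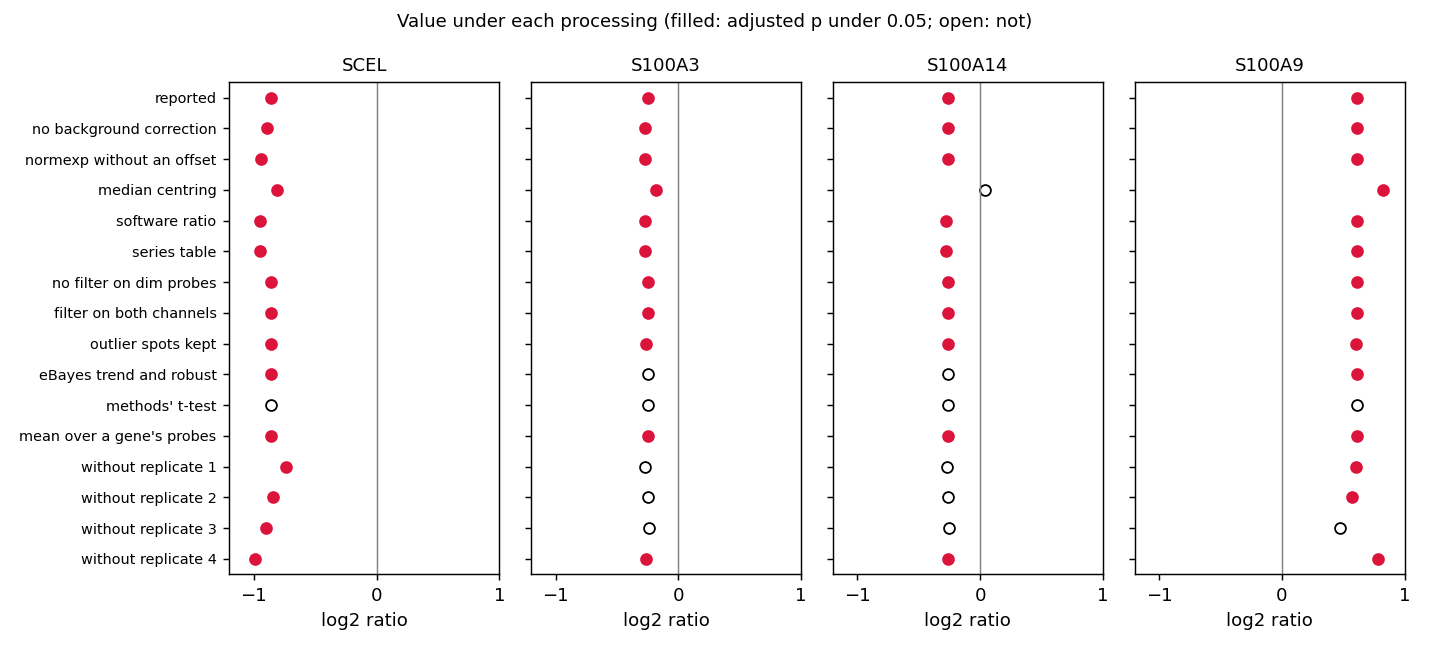
Log2 ratio of SCEL, S100A3, S100A14 and S100A9 as reported and under 15 alternative settings, with filled points for an adjusted p under 0.05. SCEL stays between −0.99 and −0.74 and S100A9 between 0.47 and 0.82, S100A3 between −0.27 and −0.18, and S100A14 lies below 0 in all settings but median centring (0.04).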

How the data were processed

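The authors deposited, for each of 4 arrays, the scanner output of Feature Extraction 10.5.1.1 (per the labels), with red and green median intensities and local background on a linear intensity scale, and the software's log10 ratio. They also deposited a series table of log2 ratios, 98.7% to 99.1% of which equalled the software's processed ratio within 0.001.

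The analysis used limma 3.58.1 under R 4.3.3, with normexp (offset 50), removal of 1377 control spots, outlier spots (814 to 1168 per array) left out, loess within arrays, and a mean over a probe's spots. A probe entered the test if either channel was well above background on every array and 2 or more arrays had a value (28505 of 34127 probes), and its ratio was tested against 0 (lmFit, eBayes; Benjamini-Hochberg over all probes). Channel levels were taken after Aquantile. Array number limits precision. Accessions gave RefSeq (GRCh38.p14) names to 24826 probes, 9301 kept the file's identifier, and a gene was read by its brightest probe. Steps were tested on simulated data.

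The members and lists were chosen with earlier results of these data known. Named with values on each array were genes with an adjusted p under 0.05, the 5 highest and 5 lowest members, members whose probes differed in sign or by over 0.3, and MTDH; S100A8 and the genes with the widest levels over arrays (S100P, SLPI) were named after their values were seen, as were other members given by their mean. Of the related lists, called genes were named (up to 10), and 5 uncalled regulators are given as examples. Of the markers, which were fixed for checking the tissue, counts are given. Motifs, start regions and marker levels by array were chosen after the calls were seen. The alternatives covered background correction, normalization, the software's ratio, the series table, filters, outlier spots, the test, the probe rule and each array left out. A slide block could not be fitted, since all arrays lie on 1 slide.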

Additional observations from a re-analysis of the deposited data

Results flagged for a closer look

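In 3 of the 48 genes examined, 1 array lay far from the other 3 by Dixon's test for an outlying value, where chance alone gives about 5% or 2.4 genes. S100A6 had a log2 ratio of −0.43 on array 4 against −0.07 to −0.04 on the others. TGM3, a transglutaminase, had −0.14 on array 4 against 0.06 to 0.10. LCE3D had 0.19 on array 2 against 0.08 on each of the others. None of the 3 genes passed an adjusted p of 0.05 in limma with all arrays.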

How the results depend on the processing

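Of the 4 called squamous genes, all 4 were called without background correction, with normexp without an offset, with the software's ratio, with the series table, under either other filter on dim probes, with outlier spots kept and when the probes of a gene were averaged. With the trend and robust options of eBayes 2 were called (S100A9 and SCEL), and of all probes 579 in place of 1055. With the methods' t-test after Benjamini-Hochberg 0 squamous genes, 0 related genes and 0 probes were called, against 5, 11 and 3936 at an unadjusted p below 0.05, and MTDH kept −3.18 with an adjusted p of 0.143. Median centring called 19 squamous genes (14 higher, 5 lower), 28 related genes and 8937 probes (5599 higher and 3338 lower, against 376 and 679), and moved the median of the 43 genes from 0.00 to 0.09 and that of all genes from 0.01 to 0.07. It turned S100A14 to 0.04, IVL to 0.21, SPRR1A to 0.23, and SPRR2D and FLG to 0.19 each. It lowered SPRR1B to −0.26, SBSN to −0.29 and LCE2A to −0.31, and among others it raised S100A10 to 0.34 and S100A11 to 0.37. The cause was not tested. The series table called 698 probes and 3 related genes. Leaving out 1 array gave 1 to 5 squamous genes, 0 to 9 related genes, 204 (without array 3) to 1977 probes (without array 4), a median of −0.01 to 0.02, and −3.24 to −3.10 for MTDH; 2 were called without array 1 or array 2, 1 (SCEL) without array 3 and 5 without array 4. Across all alternatives, calls of the 10 named called genes held in 107 cases and were lost with the sign kept in 42. In 1 case the call was lost and the sign turned (S100A14 with median centring, 0.04, limma adjusted p = 0.658). Each ratio sets the lines against each other within an array, so the reported test is already paired by array, and with 1 group of arrays no further replicate block could be fitted. With 4 arrays and no dye swap, small differences such as those of S100A14 and S100A3 lie at the limit of what can be called.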
